A study of Mus musculus with 6 samples.

Results

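The genes Dlx1, Dlx2, Dlx5, Dlx6, Gsx1, Gsx2, Sp8, Sp9, Meis2 and Nkx2-1 encode transcription factors of the ventral forebrain, and their chromatin accessibility was examined in adult neural stem cell cultures of the mouse subependymal zone. A peak was assigned to them when it overlapped the gene body or the 50 kb on either side in the GENCODE M21 annotation of GRCm38, a rule that reads no measured value, although the genes themselves were picked with earlier results of these data known. Dlx1 with Dlx2 and Dlx5 with Dlx6 are neighbours and were treated as clusters, which gave 10 genes in 8 loci. Merging the peaks of all libraries gave 119719 regions in the genome, and 74 of them lay in these loci.

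All cultures came from mice of 10 weeks in which Srr2, a regulatory element of the Sox2 locus, had been removed from both alleles with CRISPR-Cas9 (Srr2del/del). In the proliferating group (PROLIF, replicates 1, 2 and 4) cells were kept for 2 days in vitro with mitogen. In the differentiating group (DIFF, replicates 1, 2 and 4) cells on Matrigel spent 2 days with mitogen and then 1 day without it in 2% serum. The deletion was shared by both groups, wild-type cultures were not analysed here, and serum and mitogen changed together and cannot be told apart. The methods of the study place both groups on Matrigel, whereas the series description speaks of neurospheres for the proliferating cells and gives other days in culture, and the days of the sample labels are used.

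The Gsx genes are homeobox genes that act early in ventral progenitors, and the Dlx genes act downstream of them in the precursors of GABAergic interneurons. Sp8 and Sp9 are zinc finger factors of the same lineages, including the neuroblasts that travel to the olfactory bulb. Meis2 is a homeodomain cofactor retained in adult neuroblasts, whereas Nkx2-1 marks the medial ganglionic eminence. ATAC-seq cuts accessible DNA with a transposase, so that a peak marks open chromatin and not transcription.

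The distal sequences on which the comparison of states turns are given first. The first 3 are the regions that passed the test between states, the next 2 are the regions found in all 3 PROLIF and no DIFF library (PROLIF-only), and the last 2 were near the top of every peak list. Each is 201 bases of the GRCm38 plus strand centred on the highest summit, with capitals for matches to any of 9 short motifs on either strand.
Dlx2 upstream, chr2:71581049-71581249: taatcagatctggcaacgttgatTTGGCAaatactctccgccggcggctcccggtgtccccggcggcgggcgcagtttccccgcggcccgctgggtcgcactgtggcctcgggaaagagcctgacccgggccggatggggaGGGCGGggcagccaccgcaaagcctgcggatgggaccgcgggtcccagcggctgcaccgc
Gsx1 downstream, chr5:147227328-147227528: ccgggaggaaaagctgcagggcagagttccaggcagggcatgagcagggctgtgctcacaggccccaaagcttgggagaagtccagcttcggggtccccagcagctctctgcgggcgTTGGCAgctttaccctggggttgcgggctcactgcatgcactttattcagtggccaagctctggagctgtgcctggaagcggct
Meis2 intron, chr2:115939311-115939511: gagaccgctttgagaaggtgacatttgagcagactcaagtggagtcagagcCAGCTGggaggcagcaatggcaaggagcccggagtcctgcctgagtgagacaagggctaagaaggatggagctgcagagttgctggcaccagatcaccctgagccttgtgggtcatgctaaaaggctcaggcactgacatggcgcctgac
Gsx2 downstream, chr5:75085262-75085462: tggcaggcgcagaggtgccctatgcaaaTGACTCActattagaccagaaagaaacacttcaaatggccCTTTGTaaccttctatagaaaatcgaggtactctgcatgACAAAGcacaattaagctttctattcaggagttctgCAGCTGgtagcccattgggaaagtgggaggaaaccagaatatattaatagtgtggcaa
Sp8 upstream, chr12:118814645-118814845: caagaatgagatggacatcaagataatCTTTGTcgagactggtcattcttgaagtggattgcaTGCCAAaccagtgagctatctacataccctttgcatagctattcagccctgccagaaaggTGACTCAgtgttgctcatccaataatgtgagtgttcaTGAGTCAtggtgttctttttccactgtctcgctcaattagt
Gsx1 upstream, chr5:147155565-147155765: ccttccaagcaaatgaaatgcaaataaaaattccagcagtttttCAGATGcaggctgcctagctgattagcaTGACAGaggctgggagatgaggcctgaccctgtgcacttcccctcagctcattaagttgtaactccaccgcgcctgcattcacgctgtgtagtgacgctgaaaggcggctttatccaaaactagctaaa
Sp8 downstream, chr12:118855187-118855387: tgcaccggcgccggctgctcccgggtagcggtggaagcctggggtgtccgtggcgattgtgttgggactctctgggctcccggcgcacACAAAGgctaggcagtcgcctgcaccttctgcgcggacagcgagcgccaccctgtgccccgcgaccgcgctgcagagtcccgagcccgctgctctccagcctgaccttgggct

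The motifs searched were TAATTA (homeodomain), TGACAG (MEIS), ACAAAG and ACAATG (SOX), TGACTCA and TGAGTCA (AP-1), CAGCTG and CAGATG (E-boxes), TTGGCA (NFI), GGGCGG (SP and KLF) and AGGGGGC (CTCF core). The 2 AP-1 spellings are reverse complements of each other. The Dlx2 upstream window held an NFI and an SP and KLF match, the Gsx1 downstream window held an NFI match, and the Meis2 window held an E-box match. Both PROLIF-only windows held AP-1 and SOX matches, the Gsx2 window also held an E-box match and the Sp8 upstream window an NFI match. AP-1 letters occurred in 4 of the 74 member regions (5.41%) and in 5.76% of all regions. SOX letters occurred in 20 of the 74 (27.0%) and in 29.1% of all regions. A match shows only that these letters were present.

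The libraries differed in depth and length of list, which bears on every count of peaks. The lists held 59792 to 87728 peaks on chromosomes 1 to 19, X and Y. The background pileup under each peak was worked out from its fold enrichment and -log10 p, and its low end follows depth. That low end was 2.85 to 3.63 reads in 5 libraries and 6.01 reads in DIFF replicate 4. The peak names carry a number, here called the input number, whose meaning is not stated and which was in a lower range for PROLIF replicates 1 and 4 and DIFF replicate 1 and in a higher range for the others. The labels do not say that these ranges are batches. Promoters of all 7 neural stem cell markers, Sox2 included, carried a peak in all 6 libraries, which does not test the enhancer deletion. For other cell types, peaks in all 6 libraries were found at 2 of 5 oligodendrocyte, 2 of 6 microglial, 1 of 5 endothelial and 4 of 5 neuronal markers. Sox10, Mag, Cx3cr1, Ptprc, Cldn5, Cdh5 and Tek had none in any library. Of all protein-coding genes, 64.4% had a promoter peak in all 6 libraries and 25.4% had none. No difference of a marker list from these shares was tested. The endothelial gene Pecam1 had a promoter peak in the 3 PROLIF libraries alone, and the part of such cells in the results was not tested.

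The regions around the ventral factors were set beside all regions by the libraries that held a peak. Of the 74 regions, 26 (35.1%) held a peak in all 6 libraries, beside 33.5% of all regions. Of the 74 regions, 2 were found in every PROLIF and no DIFF library, beside 1.79% of all regions, and 0 in every DIFF and no PROLIF library, beside 3.48%. No difference from these shares was tested. These counts moved when 1 library was left out, to 7 PROLIF-only regions without PROLIF replicate 4, and to 4, 2 and 1 DIFF-only regions without PROLIF replicate 1, DIFF replicate 1 and DIFF replicate 2. A further 13 regions were found in 1 library, beside 29.6% of all regions. More DIFF than PROLIF libraries held a peak in 26 regions and the opposite was found in 16, beside 34.8% and 25.1% of all regions.

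**Figure D1:**
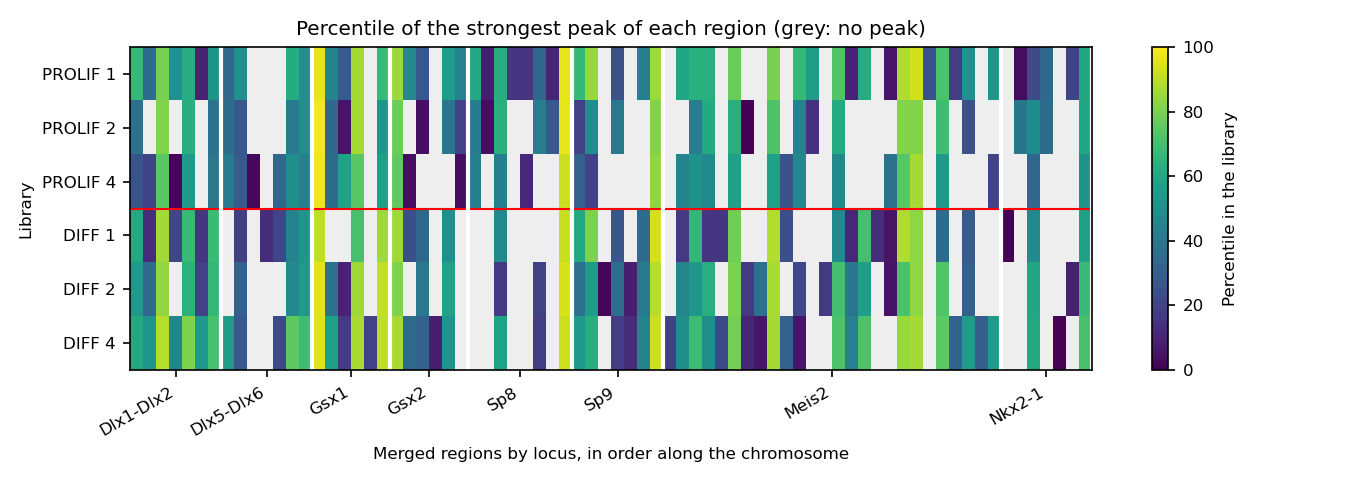
Percentile of the strongest peak of each of the 74 regions (columns, grouped by locus) in each library (rows), where 100 is the strongest peak of the library and grey marks no peak. The 26 regions filled in every row were found in all 6 libraries.

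The same-numbered libraries of the states deviated together, so the comparison was also made within pairs. When a region counted as PROLIF-side if it differed that way in at least 2 of 3 pairs and the other way in none, 9 member regions were PROLIF-side and 7 were DIFF-side, beside 6.3% and 11.1% of all regions.

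The number of peaks over the 8 loci did not separate the states. It was 59, 45 and 46 in PROLIF and 47, 52 and 60 in DIFF, or 50.0 ± 7.81 against 53.0 ± 6.56 (SD, n = 3 each), and the groups overlapped (two-sided exact permutation p = 0.5, where 0.1 is the smallest that 3 against 3 allows). The peaks covered 21554 ± 4478 bp in PROLIF and 21116 ± 1740 bp in DIFF (exact permutation p = 1.0, n = 3 each). The difference in peaks, DIFF minus PROLIF, was 11 within the higher range of input numbers and -5.5 within the lower range, where DIFF has 1 library, so its direction was not stable within these ranges. It also turned to -3.33 when all lists were cut to the length of the shortest, and to -0.5 without DIFF replicate 4. The difference in covered length was likewise 1190.5 bp within the higher range and -2757.5 bp within the lower one. Without PROLIF replicate 1 it was 1941 bp, and without DIFF replicate 1 it was 564 bp, in place of -439 bp.

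**Figure D2:**
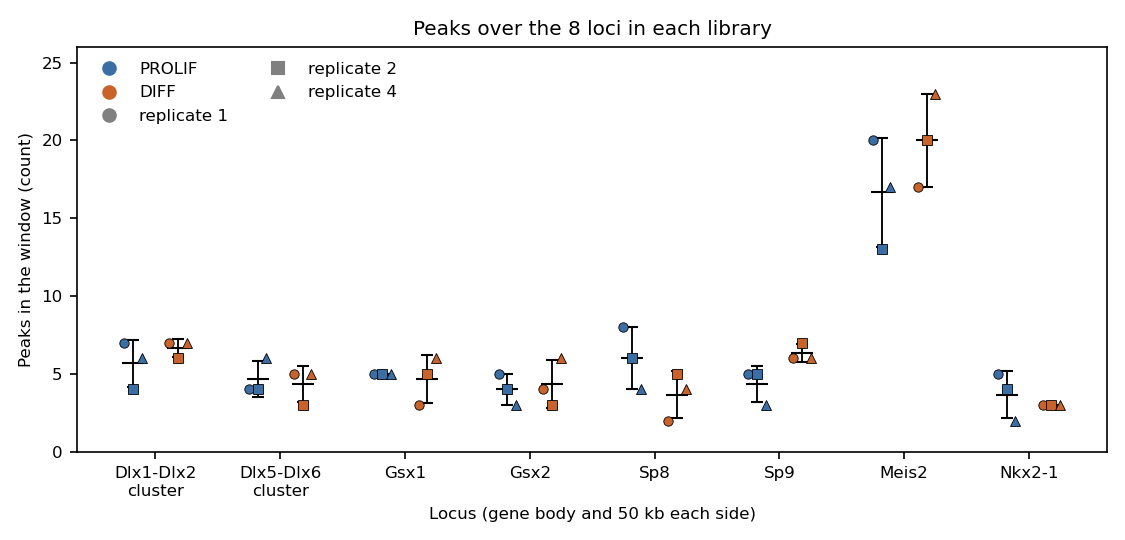
Number of peaks in the window of each of the 8 loci (gene body and 50 kb each side) per library, with black bars for the mean and SD of each state (n = 3). The states overlap at every locus but Sp9, where DIFF had 6 or 7 peaks and PROLIF 3 to 5.

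The Dlx1-Dlx2 cluster held 7 regions, of which 4 were found in all 6 libraries. The promoter of Dlx1 (chr2:71528885-71530245, with its summit in untranslated exon sequence) had percentiles of 79.6, 81.0 and 74.5 in PROLIF and 86.0, 83.9 and 88.9 in DIFF. Here the percentile is the rank of the peak by -log10 p within its library, and all DIFF values lay above all PROLIF values. The promoter of Dlx2 (chr2:71545977-71547028) had percentiles of 62.3, 62.2 and 53.9 in PROLIF and 67.3, 64.5 and 80.6 in DIFF, again without overlap. Neither difference passed the exact permutation test (p = 0.1 for each, adjusted p = 0.35 over 7 members, n = 3 each), which could not go lower. The limma fit of shared regions, described below, has no such floor, and neither region passed it (adjusted p = 0.175 for Dlx1 and 0.220 for Dlx2). Separation of the states was common, since 20.3% of all shared regions were higher in DIFF without overlap in that fit's scores and 17.8% were lower.

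A distal region of the same cluster was ranked higher in DIFF. It lay 34.4 kb upstream of Dlx2 in intergenic sequence (chr2:71581055-71581425) and had percentiles of 51.6, 37.4 and 39.6 in PROLIF and 68.1, 66.5 and 70.8 in DIFF. Its fold enrichment over background was 5.35 ± 0.82 in PROLIF and 7.69 ± 0.79 in DIFF (SD, n = 3 each). To compare shared regions, their ranks within a library were turned into normal scores and fitted with limma over all 40102 shared regions. The score of this region was higher in DIFF by 0.81 ± 0.14 (SE; limma adjusted p = 0.0122), and stayed past 0.05 without any 1 library.

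**Figure D3:**
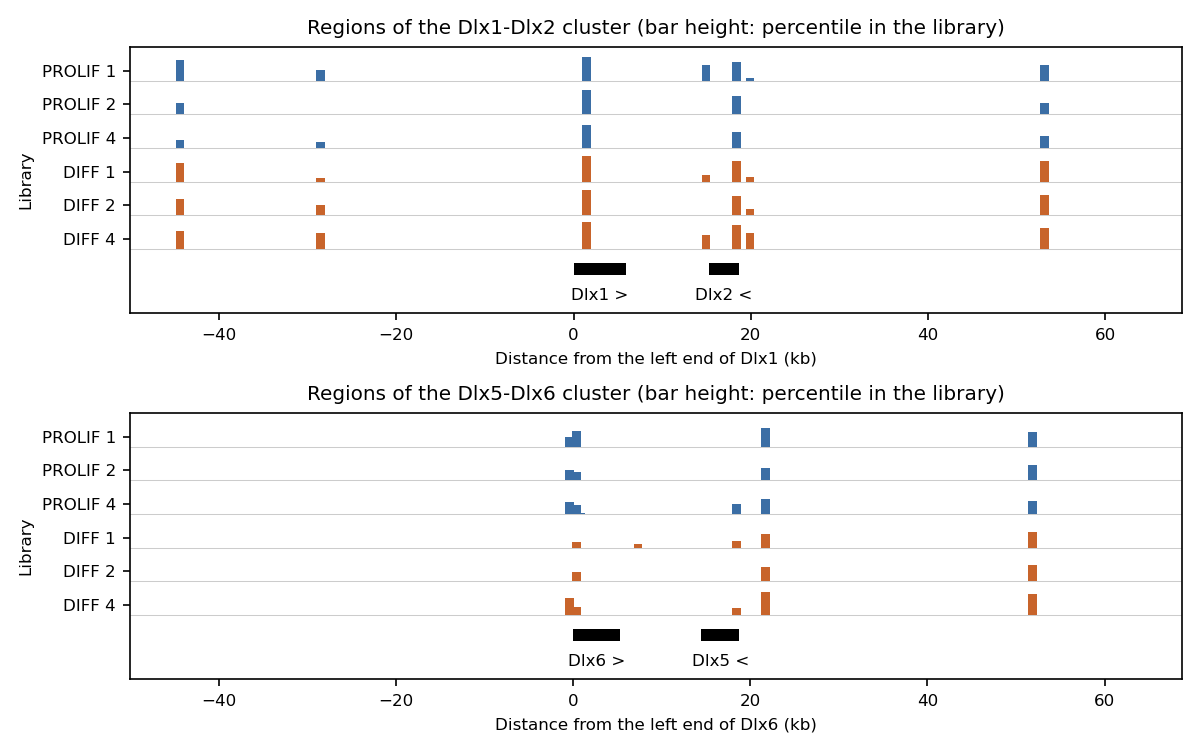
Regions of the Dlx1-Dlx2 cluster (upper panel) and the Dlx5-Dlx6 cluster (lower panel) by distance in kb, with a track per library, blue for PROLIF and orange for DIFF. Bar height is the percentile of the peak in its library, bars are drawn 1 kb wide whatever the width of the region, and black boxes are gene bodies. The region on the right of the upper panel, 34.4 kb upstream of Dlx2, is taller in every DIFF track than in any PROLIF track.

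The Dlx5-Dlx6 cluster also held 7 regions, and 3 were found in all 6 libraries. The region at the start of Dlx6 (chr6:6863457-6864035, coding exon at the summit) had percentiles of 50.6, 27.4 and 28.5 in PROLIF and 18.9, 30.6 and 28.0 in DIFF, and the groups overlapped. A region 444 bp upstream of Dlx6 (chr6:6862641-6863110) had percentiles of 33.6, 35.2 and 41.1 in PROLIF. In DIFF it was found in replicate 4 alone, at 55.3. At the start of Dlx5 itself (chr6:6881583-6881983) a peak was found in only 3 libraries, PROLIF replicate 4 and DIFF replicates 1 and 4. The promoter peak of Dlx5 in all 6 libraries came from a region about 3 kb upstream (chr6:6884732-6885399), with percentiles of 40.9 to 61.9 in PROLIF and 44.5 to 74.8 in DIFF. A distal region 33.3 kb upstream of Dlx5 (chr6:6914862-6915592) had percentiles of 49.4, 49.4 and 43.4 in PROLIF and 52.7, 53.7 and 68.4 in DIFF, and did not pass the test (score difference 0.29 ± 0.17 SE, limma adjusted p = 0.285). No region of this cluster was found in all 3 libraries of a state and none of the other.

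The Gsx genes differed from each other at their promoters. The Gsx1 promoter (chr5:147188326-147189241) held a peak in all 6 libraries at percentiles of 71.0 to 87.1, whereas no library held a peak within 3 kb of a Gsx2 start site. Among 21938 protein-coding genes, 64.4% had a promoter peak in all 6 libraries and 25.4% had none. The 250 bases before each start are printed here because these promoters contrast, taken from the RefSeq promoter table (GRCm38.p6), with GGGCGG in capitals. They held 54.0% G and C in Gsx1 and 63.6% in Gsx2, and the median over the promoters of the table was 52.4%.
Gsx1 promoter, chr5:147188446-147188695, plus strand: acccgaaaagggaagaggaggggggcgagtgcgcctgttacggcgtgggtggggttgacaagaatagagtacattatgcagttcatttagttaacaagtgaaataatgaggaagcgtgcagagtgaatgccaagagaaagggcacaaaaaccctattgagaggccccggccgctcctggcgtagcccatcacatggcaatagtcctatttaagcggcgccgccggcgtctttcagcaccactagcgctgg
Gsx2 promoter, chr5:75075351-75075600, plus strand: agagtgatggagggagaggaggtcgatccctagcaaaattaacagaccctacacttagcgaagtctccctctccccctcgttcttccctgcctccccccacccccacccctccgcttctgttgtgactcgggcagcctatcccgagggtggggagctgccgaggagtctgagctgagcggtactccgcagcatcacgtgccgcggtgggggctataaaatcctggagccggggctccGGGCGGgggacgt

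The Gsx1 locus held the shared member region with the largest score difference between states, and a second region near the top of every list. The region 38.7 kb downstream of its start (chr5:147227045-147227714, intergenic) had percentiles of 67.8, 51.8 and 56.3 in PROLIF and 85.3, 90.7 and 89.9 in DIFF. Its fold enrichment was 7.16 ± 1.66 in PROLIF and 13.1 ± 2.28 in DIFF (SD, n = 3 each), and its score was higher by 1.22 ± 0.16 (SE; limma adjusted p = 0.00523). It passed the test without any 1 library. The region 33.0 kb upstream (chr5:147154974-147156275, intergenic) stood at percentiles of 96.7, 98.8 and 98.0 in PROLIF and 90.4, 96.0 and 95.6 in DIFF. Its score was lower in DIFF by a value that missed the threshold (-0.57 ± 0.21 SE, limma adjusted p = 0.109) and passed it with the range of input numbers as a term (-0.70, adjusted p = 0.0484).

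Around Gsx2, 1 of 6 regions was found in all 6 libraries, and it was the promoter of the neighbouring gene Chic2. A region 9.76 kb downstream of the Gsx2 start (chr5:75084989-75085642, intergenic) was 1 of the 2 PROLIF-only regions, with percentiles of 43.7, 19.8 and 3.68. In PROLIF replicate 4 it was therefore among the weakest peaks of its list.

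**Figure D4:**
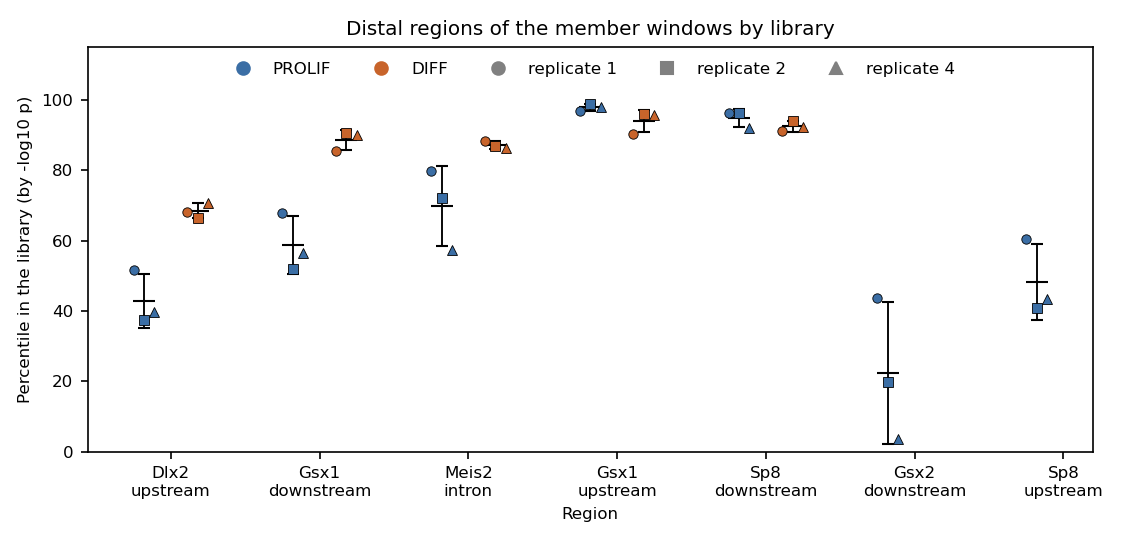
Percentile within the library of 7 distal regions by state and replicate, with black bars for the mean and SD of a state (n = 3). The first 3 regions lie higher in every DIFF than in any PROLIF library, and the last 2 have no peak in DIFF.

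The mean number of peaks was higher in DIFF around Sp9 and lower in DIFF around Sp8, and neither difference passed a test. Around Sp9 there were 5, 5 and 3 peaks in PROLIF and 6, 7 and 6 in DIFF, and the groups did not overlap (exact permutation p = 0.1, adjusted p = 0.8 over 8 loci, n = 3 each). Around Sp8 there were 8, 6 and 4 peaks in PROLIF and 2, 5 and 4 in DIFF, and the groups overlapped (exact permutation p = 0.3, n = 3 each). Both differences were 0 among the strongest 20000 peaks of each library. Chromosome 12, which carries Sp8 and Nkx2-1, held 4.94% and 4.84% of the peaks in replicate 2 of PROLIF and DIFF and 4.31% to 4.39% in the other libraries.

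The promoter peaks of Sp8 and Sp9 varied widely between replicates. Sp9 (chr2:73271522-73272232 at its start) had percentiles of 84.3, 48.2 and 20.3 in PROLIF and 80.2, 54.9 and 62.4 in DIFF, so the spread within PROLIF exceeded the difference of the means. The distal region of its locus with the highest lowest percentile lay 41.1 kb upstream (chr2:73230569-73231115, intergenic), at 66.8, 19.8 and 31.0 in PROLIF and 60.8, 37.7 and 53.8 in DIFF. Sp8 had a promoter peak in 5 libraries, at percentiles of 33.7, 42.1 and 11.5 in PROLIF, none in DIFF replicate 1, and 19.4 and 18.2 in the other two. The other PROLIF-only region lay 31.6 kb upstream of Sp8 (chr12:118814613-118814864, intergenic) at percentiles of 60.5, 40.9 and 43.4. The strongest region of the Sp8 locus lay 7.7 kb downstream of the nearest Sp8 start (chr12:118854841-118855549, intergenic), at percentiles of 91.9 to 96.3 in PROLIF and 91.1 to 94.0 in DIFF.

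Meis2 spans the longest window and held 26 regions, of which 8 were found in all 6 libraries. Per 100 kb of window this was 8.59 regions, at the 69.3rd percentile of all protein-coding genes, and the other members lay between 45.1 and 60.9. Its strongest promoter peak stood at percentiles of 93.5, 81.3 and 86.4 in PROLIF and 88.2, 83.3 and 86.6 in DIFF, and the groups overlapped. In PROLIF replicates 1 and 4 and DIFF replicates 2 and 4 that peak lay at the start of the neighbouring noncoding gene G630016G05Rik (chr2:116066625-116067486). The region at the Meis2 start itself (chr2:116065568-116066386) had percentiles of 88.2, 81.3 and 74.0 in PROLIF and 88.2, 71.3 and 84.6 in DIFF, and the groups overlapped. An intronic region 126 kb from the 5′ end of the gene (chr2:115939015-115939720) had percentiles of 79.8, 72.0 and 57.4 in PROLIF and 88.4, 86.7 and 86.4 in DIFF. Its score was higher in DIFF by 0.67 ± 0.17 (SE; limma adjusted p = 0.0434). A second intronic region, 170 kb from the 5′ end (chr2:115895202-115896366), had percentiles of 77.4, 63.0 and 57.4 in PROLIF and 78.2, 80.2 and 79.1 in DIFF, with a score difference of 0.40 ± 0.16 (SE; limma adjusted p = 0.139) that missed the threshold. The call of the first was lost when any 1 library was left out (adjusted p between 0.0551 and 0.121) and with the range of input numbers as a term (adjusted p = 0.0738).

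Nkx2-1 had a promoter peak in 4 libraries, and its DIFF peaks were near the bottom of their lists. The strongest were at percentiles of 33.2 and 35.2 in PROLIF replicates 1 and 2, in a coding exon region (chr12:56533036-56533448). In DIFF they lay in other regions, both intronic. These were at 8.86 in replicate 2 (chr12:56534557-56534924, where PROLIF replicate 1 had 20.2) and at 1.06 in replicate 4 (chr12:56534440-56534535). The values therefore do not compare the same region between states. No library held a peak in the 250 bases before the 5′ end of the gene. Of 7 regions, 2 were found in all 6 libraries, and the stronger lay 4.42 kb upstream in an exon of the antisense gene Gm26973 (chr12:56541036-56541509), at percentiles of 51.1 to 59.9 in PROLIF and 56.9 to 70.8 in DIFF.

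**Figure D5:**
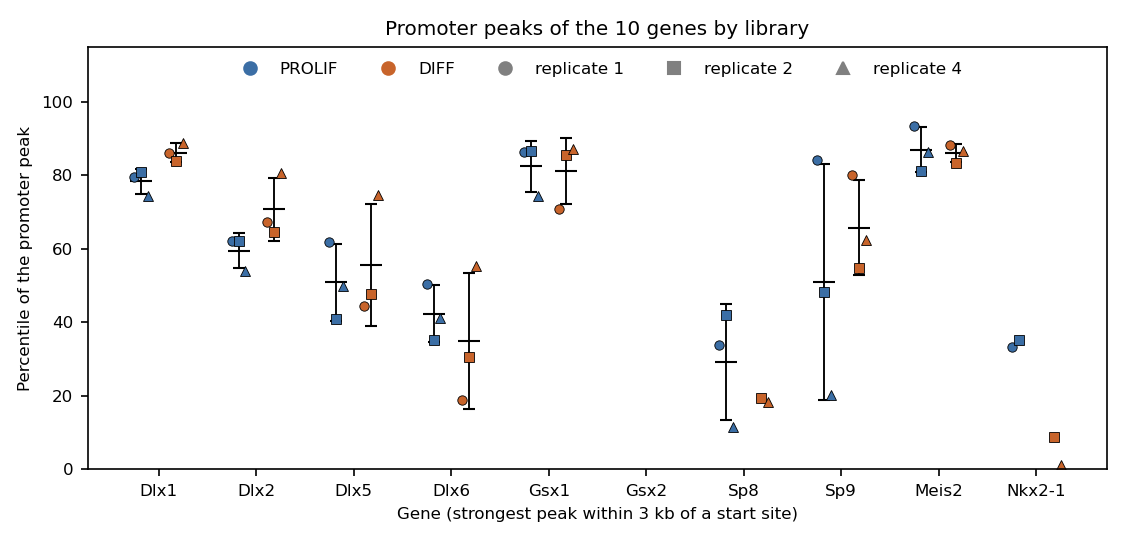
Percentile of the strongest peak within 3 kb of a start site for the 10 genes, by state and replicate, with black bars for the mean and SD where all 3 libraries of a state had a peak. Meis2, Gsx1 and Dlx1 lie highest, Gsx2 has no point, and Nkx2-1 has 4. The Nkx2-1 points of PROLIF and of DIFF come from different regions. The Meis2 points of PROLIF replicates 1 and 4 and DIFF replicates 2 and 4 come from the region at the start of G630016G05Rik.

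In the limma fit, 3 of the 26 shared member regions were higher in DIFF and 0 were lower, beside 6.28% and 8.57% of all shared regions. The 3 were those of Dlx2, Gsx1 and Meis2 described above. At an unadjusted p under 0.05 there were 7 regions, 5 higher and 2 lower, beside 16.1% and 15.7% of all shared regions. With log2 fold enrichment in place of ranks the counts were again 3 and 0. The scores of the states did not overlap in 8 regions that were higher and 2 that were lower in DIFF, beside 20.3% and 17.8% of all shared regions. The median score difference was 0.22 over the 26 regions and 0.05 over all shared regions. On simulated data, where far fewer regions were shifted than were called here, the fit recovered most of the largest planted shifts in peak strength. It called none of the smallest size planted, so a region that missed the threshold was not shown to be unchanged.

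The promoters of related genes were read from fixed lists. All 27 partner forebrain factors had a promoter peak in all 6 libraries. Of 18 genes of GABAergic neurons 13 had one in all 6, and Nos1 and Dcx had none. The 13 included Gad1 (percentiles 37.0 to 48.0) and Gad2 (57.3 to 77.2), which encode the enzymes of GABA synthesis. The other 3 had a promoter peak in some libraries only. These were Npy in 4 libraries, Slc32a1 in 2 (replicate 1 of each state) and Sst in 1 (DIFF replicate 1). Of 13 paralogues of the members 4 had one in all 6, and Sp7 and Nkx2-5 had none. Among the 10 members themselves the count was 7, or 6 with promoters of 1 kb, and the share over all protein-coding genes was 64.4% at 3 kb. No member and no gene of these 3 lists had a promoter peak in all libraries of PROLIF but none of DIFF, or the reverse, beside 0.228% and 0.374% of protein-coding genes.

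By sequence, member regions near a start site had a median of 63.1% G and C, against 54.9% over all regions near a start site, and those away from start sites had 51.2% against 48.6%. The homeodomain letters TAATTA were found in 4 of the 45 member regions away from start sites (8.89%) and in 4.80% of all such regions. Near start sites they were in 0 of 29 member regions, and over all 74 the share was 5.41%, against 4.08% of all regions. Among the 45, SP and KLF letters were found in 6 (13.3%, against 5.06%) and CTCF core letters in 5 (11.1%, against 5.05%). SOX letters were found in 15 of the 45 (33.3%), against 32.3%. The other letters had shares of 17.8% against 17.3% (MEIS), 17.8% against 20.4% (NFI) and 6.67% against 6.44% (AP-1). For the E-boxes they were 17.8% against 20.6% (CAGCTG) and 20.0% against 19.0% (CAGATG). No difference in these shares was tested.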

How the data were processed

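Nuclei of 50000 cells per library were tagmented (Nextera) and sequenced. Per the labels and the methods of the study, the authors used FastQC, MultiQC, Cutadapt, Trimmomatic (reads under 20 bases dropped), Bowtie2 on GRCm38, Picard MarkDuplicates and MACS2 (narrow peaks, no model, false discovery rate 0.05) on each library. Tool versions, read shift and blacklist are not given in the sources used here. The deposited peak lists hold a score, a fold enrichment (ratio), and −log10 p and −log10 q values per peak. Reads were not used here, so total depth is unknown, and the authors' test on alignments was not repeated.

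Peaks on scaffolds and the mitochondrial genome were left out (150 to 311 per list). Peaks of the 6 lists were merged when they shared 1 bp. A promoter peak lay within 3 kb of any start site. Samples were grouped by label. Tests were two-sided exact permutations and limma 3.58.1 (R 4.3.3) with Benjamini-Hochberg adjustment over 40102 shared regions, under Python 3.11.15. The code was tested on simulated data, where limma called most of the large planted shifts and none of the smallest. Same-numbered libraries deviated together (correlations of 0.126 to 0.154 over shared regions), so the replicate block was tried as an alternative, with peak thresholds, window sizes and left-out libraries. Regions were named if near a promoter, found in all libraries of a state and none of the other, past the limma test, or the distal region of a locus with the highest lowest percentile, and genes of the lists if among those with no promoter peak or with peaks in all libraries of a single state. Gad1, Gad2, Npy, Slc32a1, Sst and G630016G05Rik were chosen after their values were seen. The members and lists were chosen with earlier results of these data known.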

Additional observations from a re-analysis of the deposited data

How the results depend on the processing

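The 3 member regions higher in DIFF and the 0 lower were unchanged by the replicate block and by log2 fold enrichment. With the range of input numbers as a term 2 were higher and 1 lower, and without any 1 library 2 were higher and 0 to 1 lower (1 without DIFF replicate 1). The replicate block gave 9 PROLIF-side and 7 DIFF-side regions under its own rule and changed no other call. PROLIF-only regions numbered 1 at q of 0.001 or less, with windows of 10 kb and where peaks covered at least 50% of a region, 0 among the strongest 20000 peaks, and 2 to 7 without 1 library (7 without PROLIF replicate 4). DIFF-only regions numbered 1 among the strongest 20000 peaks and with windows of 100 kb, and 0 to 4 without 1 library (4 without PROLIF replicate 1, 2 without DIFF replicate 1, 1 without DIFF replicate 2). Regions in all 6 libraries numbered 6 among the strongest 20000 peaks and 40 with windows of 100 kb. Members with a promoter peak in all 6 libraries numbered 2 among the strongest 20000 peaks, 6 with promoters of 1 kb and 8 without DIFF replicate 1.

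The difference in peaks turned to -3.33 with lists of equal length and -5.5 within the lower range of input numbers, and was -0.5 to 7.5 without 1 library. The difference in covered length turned to 1515 bp among the strongest 20000 peaks and 1190.5 bp within the higher range, and was -2505 to 1941 bp without 1 library. By locus, the difference in peaks turned to -0.33 at Meis2 with lists of equal length, and to 0.67 at Gsx1 among the strongest 20000 peaks. Without 1 library it was -1.0 to 0.5 at Gsx1 (positive without DIFF replicate 1), -0.67 to 0.33 at the Dlx5-Dlx6 cluster (positive without PROLIF replicate 4 or DIFF replicate 2) and -0.5 to 1.0 at Gsx2 (negative without DIFF replicate 4, and -0.17 without PROLIF replicate 4). The cause was not tested. Without reads, a missing peak at low depth cannot be told from closed chromatin.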
